A study of Mus musculus with 12 samples.

Results

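Complement and coagulation factors are plasma proteins that the liver makes and secretes, and 40 of their genes were examined here among the 21705 genes measured in mouse liver. The genes were taken by symbol: 20 belong to the complement system and 20 to coagulation, the contact system and fibrinolysis. Livers came from female C57BL/6J mice of 10 to 12 weeks that had an 18 h fast before collection. Saline livers (replicates 43, 45, 47, 49, 51 and 53, n = 6) were compared with 6 LNA29 livers (replicates 44, 46, 48, 50, 52 and 54). Saline mice received the vehicle, and LNA29 mice received a pair of locked nucleic acid inhibitors, LNA29a and LNA29bc, at 20 mg/kg each through the tail vein 7 days earlier. Locked nucleic acids are short modified oligonucleotides that bind a microRNA and block it, and saline rather than another oligonucleotide was the control for these livers.

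Complement works as a cascade of proteases. The classical and lectin routes cut C4 and C2, the alternative route amplifies the signal through factor B and factor D, and both converge on C3 and then on C5, after which C6 to C9 assemble a pore in the target membrane. Coagulation is a second cascade in which vitamin K-dependent proteases activate thrombin, thrombin turns fibrinogen into fibrin, and plasmin dissolves the clot again. Hepatocytes are the main source of most of these proteins, with adipsin (factor D), made largely in fat, as a known exception.

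The inhibitors are directed at the miR-29 family, whose mature sequences (RefSeq, GRCm38.p6) are shown because a shared seed, bases 2 to 8 in capitals, sets which messages the family can pair with.
miR-29a-3p: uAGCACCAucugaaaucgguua
miR-29b-3p: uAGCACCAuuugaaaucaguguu
miR-29c-3p: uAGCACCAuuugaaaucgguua
The matching site in a 3′ UTR reads TGGTGCT on the strand of the message. Taking for every gene its longest 3′ UTR in GENCODE M21 (GRCm38), 1 of the 40 genes held this heptamer (2.5%), against 1877 of the 12145 tested genes with an annotated 3′ UTR (15.5%). The 3′ UTRs of the 40 genes were also shorter, with a median of 354.5 bases against 1141. The 1 match lay in exon 8 of Serpinc1, the gene of antithrombin, at chr1:161002650-161002656 on the plus strand (GRCm38), 187 bases into a 3′ UTR of 3400 bases, and is shown with its surroundings in lower case.
Serpinc1: aaacctatatccTGGTGCTtttgaagg

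Promoter elements were counted as well. A RefSeq promoter window, from 250 bases before to 50 bases after the transcript start, was at hand for 31 of them. On either strand, GTTAAT, a part of the motif bound by the hepatocyte factor HNF1, was found in 10 of the 31 windows (32.3%), and in 437 of the 9901 windows of tested genes (4.41%). The 10 genes were C4bp, C8a, C8b, Cfp, F13b, F2, Fga, Fgb, Hc and Vtn. CTGGGAA, a motif known from interleukin-6 responses, was found on either strand in 6 of 31 windows (19.4%) against 1087 of 9901 tested windows, and TTGCAAT, a motif known for C/EBP factors, in 1 of 31 (3.23%) against 1.32%. Matches describe letters in a window and not binding. The HNF1 element, in capitals and here as ATTAAC on the strand of the gene, is shown for a pair of fibrinogen chains and for C8b and Hc, which stand out in the comparison of groups.
Fga: ccaagggtgatgATTAACctcctgccggtt
Fgb: aaaatgtcaaatATTAACtaaagggaggta
C8b: tactttacctgtATTAACcctctaaccctg
Hc: ctgacattaataATTAACcggagaactaat
The capitals span chr3:83026110-83026115 for Fga (plus strand), chr3:83049887-83049892 for Fgb (minus strand), chr4:104766111-104766116 for C8b (plus strand) and chr2:35061481-35061486 for Hc (minus strand), all in GRCm38.p6. They begin 43, 29, 206 and 74 bases before the RefSeq start, in that order.

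Values are the deposited signal, scaled so that the upper quartile of read genes is 1000 in each liver (slightly under it in saline replicate 49), with 1 for a gene without reads. Livers had between 7696081 and 19062437 reads on genes, and 1 read was worth between 9.80 and 24.4. The 40 genes took between 1.10% and 2.11% of the reads of a liver, and albumin between 35.7% and 46.9%. Saline replicate 49 had the lowest albumin share and the strongest tilt of its values towards long transcripts (Spearman rho of 0.496 over 12164 genes). Hepatocyte markers, among them Apoa1 and Asgr1, were read in all 12 livers. As a check of the treatment, Sparc, an established miR-29 target, was 7039 at the median of LNA29 livers against 2569 in saline livers, with no overlap (limma adjusted p = 4.62e-05). Of 4 such targets Eln and Col3a1 also passed, while Col1a1 did not (log2 fold change 0.70, limma adjusted p = 0.688). In whole liver, fewer cells of a type and less RNA per cell cannot be told apart.

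All 40 genes had a mean value of at least 10 and were tested, and none had a limma adjusted p under 0.05 (the smallest was 0.243, for C4b). Over all 12486 genes tested, 20 passed (0.16%). Without adjustment, 5 of the 40 had a limma p under 0.05, as had 988 of all 12486. On the recovered reads edgeR and DESeq2 also called 0 of the 40, where they called 0.136% and 0.577% of all tested genes. The 40 log2 fold changes had a median of -0.09, equal at this precision to that over all tested genes. Of the 40, 27 had a lower mean of log2(value + 1) in LNA29 livers (67.5%), against 61.4% of all tested genes. Only C4b lay outside a log2 fold change of 0.5 in either direction, so 39 of 40 were within it (97.5%), against 76.2% of all tested genes. Cfd, read in only a few livers, counts among these 39 and among the 27 with a lower mean. Genes of this set also varied less between livers of a group, with a median SD of 0.34 on the log2 scale against 0.52 for all tested genes. The filter of 10 lies close to or below the value of 1 read (9.80 to 24.4), so all tested genes include barely read ones. Read depth was not matched in these comparisons, and its part was not tested.

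Single genes were tested by exact permutation, two-sided, with every way of dividing the 12 livers into equal groups. Without adjustment for multiple testing, 5 of the 40 genes were lower in LNA29 livers at p under 0.05 (12.5%) where 6.34% of all tested genes were. These were C4b, Masp2, C3, Hc and Serpind1. One gene, C8b, was higher (2.5%), where 2.15% of all tested genes were. In none of the 40 were all LNA29 livers beyond all saline livers, a separation seen in 0.985% of tested genes. The smallest p that this design allows is 0.00216.

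**Figure D1:**
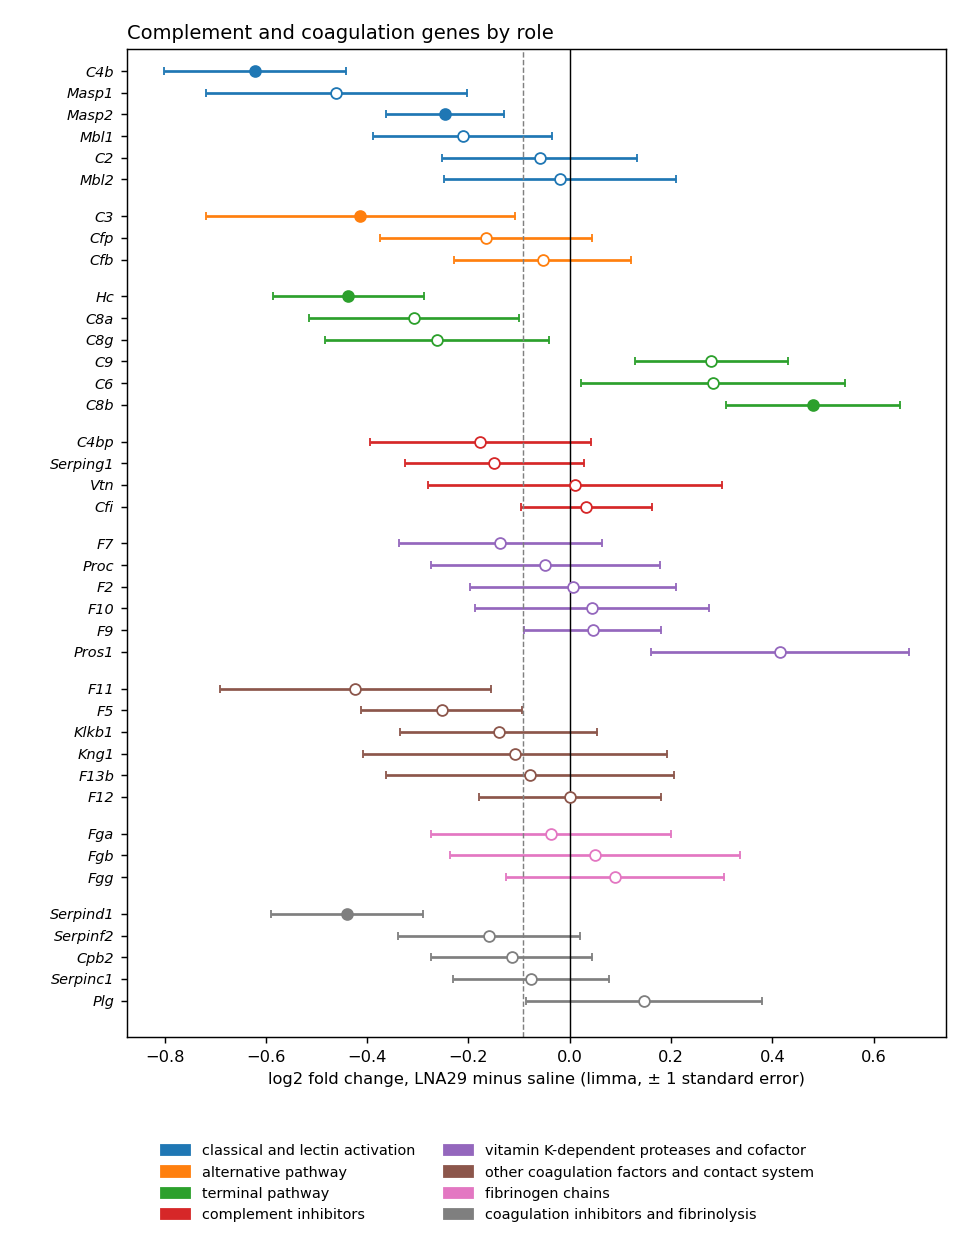
Log2 fold change of 39 genes (LNA29 minus saline, limma on log2(value + 1), bars ± 1 standard error, n = 6 livers per group), grouped and coloured by role. Filled points have an exact permutation p under 0.05, the dashed line marks the median of all tested genes (-0.09), and Cfd, read in only a few livers, is not drawn. Points lie between -0.62 for C4b and 0.48 for C8b, and the fibrinogen chains lie near 0.

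The classical and lectin routes held the gene with the largest difference. All 6 of their genes had a log2 fold change below 0 in limma, with -0.23 as the median. Of all tested genes 61.4% were below 0 in that fit, with a median of -0.09. For C2 and Mbl2 the mean of the values themselves was slightly higher after LNA29. Log2 fold changes of C2 and Mbl2 were above 0 in edgeR (0.08 and 0.11) and in DESeq2 (0.09 and 0.12). C4b encodes complement C4, whose cleavage product forms the C3 convertase together with C2. Its values in saline livers ran from 26052 to 35747 with a median of 30115, and in LNA29 livers from 12840 to 29365 with a median of 18344. The groups overlapped because LNA29 replicate 44 lay above 3 saline livers, while LNA29 replicates 46, 48, 50, 52 and 54 lay below every saline liver. The means were 30232 ± 3410 in saline and 20263 ± 5970 in LNA29 livers (SD, n = 6 each). On the log2 scale this was -0.62 ± 0.18 (standard error), with p = 0.0108 by exact permutation. When the tilt with transcript length of each liver was added to the limma fit as a covariate, C4b had an adjusted p of 0.0427, among 124 tested genes called in that fit (0.993%), and it was the only one of the 40 genes called there.

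C4b has a near-identical copy in the mouse, C4a, and their relative values differed from liver to liver. Whether this lies in expression or in how reads were assigned between the copies was not tested. The ratio of C4a to C4b ran from 0.191 in saline replicate 49 to 2.45 in LNA29 replicate 48, the liver with the least C4b. After saline replicate 49 it was lowest in saline replicate 43 (0.301) and LNA29 replicate 44 (0.367). These livers had the strongest tilt towards long transcripts (Spearman rho 0.496, 0.275 and 0.258, in that order). The highest ratios, in LNA29 replicate 48 and saline replicate 47 (1.17), went with the lowest rho (-0.243 and -0.295). The part of this tilt in the ratio was not tested. Summed, the pair ran from 37310 to 56491 in saline livers with a median of 51728, and from 28342 to 44245 in LNA29 livers with a median of 38465. Saline replicate 49 was the only saline liver within the range of the LNA29 livers. On the log2 scale the sum was lower by 0.42 after LNA29 (p = 0.0173, exact permutation test). It was chosen after the values of C4b were seen.

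**Figure D2:**
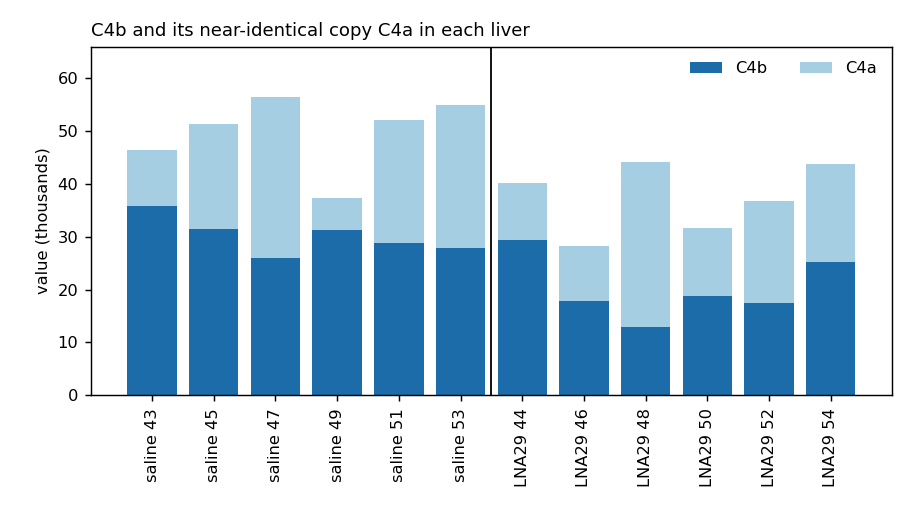
Values of C4b (dark) and C4a (light), stacked, in each of the 12 livers, in the deposited unit divided by 1000. The stacks reach 37310 to 56491 units in saline livers and 28342 to 44245 in LNA29 livers, and the share taken by C4a varies in both groups.

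Masp2 encodes the protease that lectins use to cut C4 and C2. Its values ran from 4883 to 5374 in saline livers (median 5221) and from 3759 to 5015 in LNA29 livers (median 4475). Saline livers lay close together, and only LNA29 replicate 54 lay within their range. The means were 5168 ± 178 and 4381 ± 504 (SD, n = 6 each), or -0.25 ± 0.12 (standard error) on the log2 scale. The p was 0.00433 by exact permutation and 0.631 by limma after adjustment. With all livers shifted to a common median the permutation p was 0.0563, and in edgeR and DESeq2 the unadjusted p-values were 0.2 and 0.117.

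The other genes of these routes did not pass. Masp1, which encodes the partner protease of Masp2, had a median of 962 in saline and 733 in LNA29 livers, and its highest value, 1953, was in saline replicate 43 (log2 fold change -0.46, p = 0.158 by exact permutation). The mannose-binding lectins that carry these proteases, Mbl1 and Mbl2, had log2 fold changes of -0.21 and -0.02. C2 had -0.06, with 5 of the LNA29 livers at or below 1740 and LNA29 replicate 48 at 3113.

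C3, on which all routes converge, was the gene of the set with the highest value. In saline livers it ran from 616720 to 939298 with a median of 733190, and in LNA29 livers from 474125 to 834717 with a median of 488365. LNA29 replicates 46, 50, 52 and 54 lay within 474125 to 488415, below every saline liver, whereas LNA29 replicates 44 and 48 lay within the saline range. The means were 747261 ± 126836 and 568190 ± 146682 (SD, n = 6 each), or -0.41 ± 0.31 (standard error) on the log2 scale. By exact permutation p was 0.0411, and after adjustment in limma it was 0.803. Among the 6 genes this p moved past 0.05 most often: it was 0.123 with a common median and 0.0866 with TMM scaling, and it was between 0.0693 and 0.0823 on leaving out any one of saline replicates 43, 47, 51 and 53 or LNA29 replicates 46, 50, 52 and 54. Genes that act with C3 in the alternative route were near 0 or imprecise, with a log2 fold change of -0.05 for Cfb (factor B, median 48359 in saline and 42552 in LNA29 livers) and -0.17 for Cfp (properdin, which stabilises the convertase).

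Cfd, the adipsin gene, was the one gene of the 40 without reads in some livers, and a single liver of each group held nearly all of its reads. It had 44 reads (a value of 772) in saline replicate 47, 37 reads (a value of 698) in LNA29 replicate 52, 1 read in saline replicate 51 and none in the other livers. No fold change is given for it. Adipoq, an adipocyte hormone gene, was read in exactly the same pair of livers, with 3 reads in saline replicate 47 and 2 in LNA29 replicate 52, and Plin1, which coats adipocyte lipid droplets, had 8 reads in LNA29 replicate 52 alone. Of the 5 adipocyte markers, Lep had no reads in any liver, while Fabp4 and Cidec, which other cells use too, were read in all 12. The part of fat cells in the Cfd values was not tested. With both livers left out, 0 of the 40 genes had a limma adjusted p under 0.05 and the permutation p of C3 was 0.143 and that of C8b 0.0635.

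**Figure D3:**
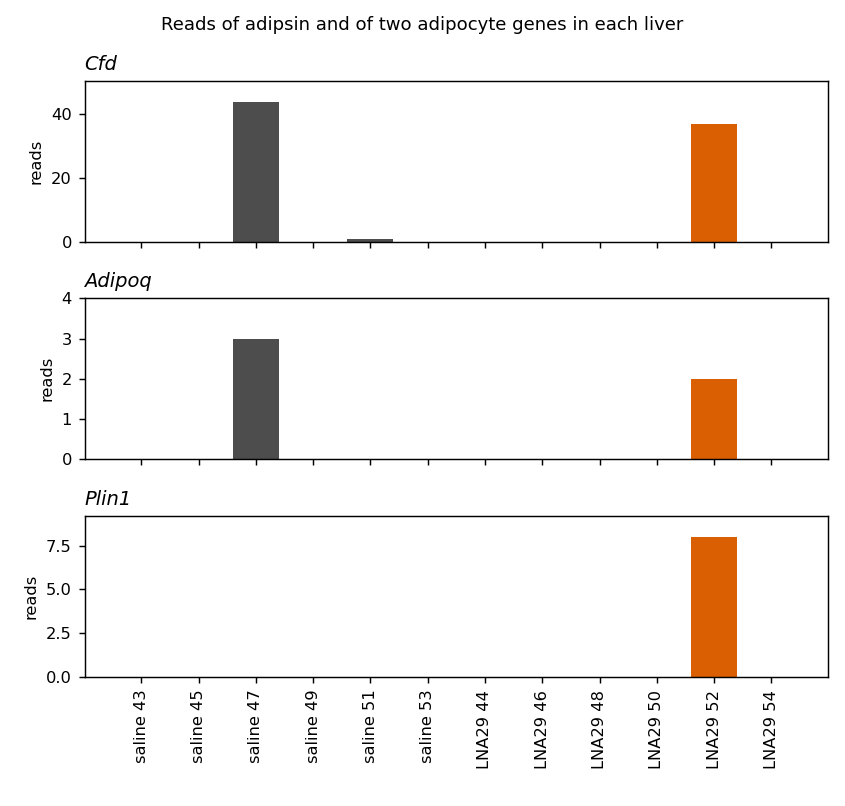
Recovered reads of Cfd, Adipoq and Plin1 in each of the 12 livers (saline grey, LNA29 orange, each panel with its own linear axis from 0). Reads of Cfd and Adipoq above 1 occur in saline replicate 47 and LNA29 replicate 52 and nowhere else.

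Genes of the terminal pathway lay on both sides of 0. Hc encodes C5, the first component of the pore. It ran from 7561 to 9406 in saline livers (median 8380) and from 4805 to 8208 in LNA29 livers (median 6112). All LNA29 livers lay below the saline median, but LNA29 replicates 44 and 48 overlapped the saline range. The means were 8389 ± 762 and 6304 ± 1420 (SD, n = 6 each). This is a log2 difference of -0.44 with a standard error of 0.15 (p = 0.0195 by exact permutation, 0.387 after adjustment in limma).

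C8b, which encodes the beta chain of C8, was the one gene with an exact permutation p under 0.05 in the other direction. It ran from 2760 to 5500 in saline livers (median 4175) and from 3927 to 7302 in LNA29 livers (median 5759). LNA29 replicates 48, 50, 52 and 54 lay above every saline liver, and LNA29 replicate 46 lay below the saline median. The means were 4138 ± 901 and 5748 ± 1116 (SD, n = 6 each). LNA29 livers were higher by 0.48 on the log2 scale, with a standard error of 0.17, a permutation p of 0.0281 and a limma adjusted p of 0.427.

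The alpha chain of C8 is encoded by C8a, the neighbour of C8b on chromosome 4, and it did not share this direction. C8a had -0.31 on the log2 scale (p = 0.212 by exact permutation), with 1780 in LNA29 replicate 46 and between 2849 and 4959 in the other LNA29 livers. The ratio of C8a to C8b within a liver was 1.02 at the median of saline livers (0.836 to 1.40) and 0.552 at the median of LNA29 livers (0.453 to 0.875). The ranges touched only through LNA29 replicate 44 and saline replicate 53. This ratio was chosen after the values were seen and is given without a test. C8g, the unrelated gamma chain, had -0.26, and C6 and C9, which enter the pore before and after C8, had 0.28 each (exact permutation tests, p = 0.314 and 0.0736). For C9 the permutation p was 0.0303 without saline replicate 53 and 0.0325 without LNA29 replicate 50. It stayed over 0.05 in the other 10 of 12 cases of leaving out 1 liver. C6 was the most weakly read of them, with 9 to 55 reads per liver.

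Inhibitors of complement showed small differences. C4bp and Serping1, which encode the C4b-binding protein and the C1 inhibitor, had log2 fold changes of -0.18 and -0.15. Cfi, the factor I protease that destroys C3b and C4b, was among the steadiest genes of the set, with 13032 ± 976 in saline and 13418 ± 1970 in LNA29 livers (SD, n = 6 each, log2 fold change 0.03, standard error 0.13). Vtn, encoding vitronectin, averaged 191202 ± 69124 and 190504 ± 77335 but ran from 91910 in saline replicate 49 to 347566 in LNA29 replicate 48.

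None of the 15 genes of the vitamin K-dependent, contact, cofactor and fibrinogen groups had an exact permutation p under 0.05. Of all tested genes 6.34% were lower and 2.15% higher at this threshold. With 15 genes a difference from these shares was not tested. The vitamin K-dependent proteases F2 (prothrombin), F7, F9 and F10, together with Proc (protein C), had log2 fold changes between -0.14 and 0.05, with standard errors of 0.14 to 0.23. Pros1, the gene of protein S, which is the cofactor of protein C, had 0.42 (p = 0.188 by exact permutation). It was 1600 and 1616 in LNA29 replicates 44 and 54, where saline livers reached 930 at most, but 509 in LNA29 replicate 48, below every saline liver. Without that liver Pros1 had 0.60 (p = 0.0325 by exact permutation). This was the exception, as 11 of the 12 p-values from leaving out 1 liver stayed over 0.05. In edgeR its unadjusted p was 0.0194 (adjusted 0.558), and in DESeq2 0.019 (adjusted 0.431).

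Among the other clotting factors and the contact system, F12 (factor XII) had a log2 fold change of 0.00, with a narrower range in LNA29 livers (24732 to 31057) than in saline livers (17600 to 37745). F11, which factor XII activates, had -0.42 (p = 0.223 by exact permutation), with LNA29 replicate 46 at 317 against 518 or more elsewhere, and -0.19 without that liver. Kng1 (kininogen) and its copy Kng2 summed to a log2 difference of -0.11, the same as Kng1 alone. F5, the cofactor factor V, had -0.25, and Klkb1 (plasma prekallikrein) and F13b (the carrier subunit of factor XIII) had -0.14 and -0.08.

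The 3 fibrinogen chains lie side by side on chromosome 3 and were among the highest values of the set after C3. Fgb ran from 159060 to 463596 in saline livers (median 349797) and from 259943 to 439623 in LNA29 livers (median 318604). Fga ran from 185950 to 372768 (median 288083) and from 225925 to 341679 (median 264859). For both, saline replicate 49 was the lowest of all 12 livers and saline replicate 51 the highest, so the LNA29 livers lay inside the saline range. Means of Fgb were 335454 ± 100800 and 336734 ± 71316, and those of Fga 285150 ± 59619 and 274698 ± 40638 (SD, n = 6 each). Log2 fold changes were 0.05, -0.04 and 0.09 for Fgb, Fga and Fgg, with standard errors of 0.29, 0.24 and 0.22 (exact permutation tests, p = 0.877, 0.825 and 0.619). Relative to Fga, Fgg was at 0.474 to 0.619 in saline livers and 0.495 to 0.652 in LNA29 livers. Fgb was at 0.855 to 1.28 of Fga in saline livers, lowest in saline replicate 49, and at 1.10 to 1.36 in LNA29 livers.

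Of the coagulation inhibitors and fibrinolysis genes, Serpind1 stood apart. It encodes heparin cofactor II, an inhibitor of thrombin. Its values ran from 8130 to 11938 in saline livers (median 10378) and from 5317 to 9642 in LNA29 livers (median 7414). All 6 LNA29 livers lay below the saline median, and LNA29 replicates 48 and 54 overlapped the saline range. The means were 10182 ± 1443 and 7563 ± 1434 (SD, n = 6 each), or -0.44 ± 0.15 (standard error) on the log2 scale. The exact permutation p was 0.013, or 0.0541 with a common median, and the limma adjusted p was 0.387. The related inhibitor antithrombin is encoded by Serpinc1, whose longest annotated 3′ UTR holds the miR-29 seed match. Whether its transcripts in these livers carry that 3′ UTR was not tested. Serpinc1 had -0.08 on the log2 scale (p = 0.409 by exact permutation) with 73914 ± 7905 in saline and 70052 ± 6897 in LNA29 livers (SD, n = 6 each). Serpinf2 (the plasmin inhibitor), Cpb2 (which protects fibrin) and Plg (plasminogen) had -0.16, -0.11 and 0.15.

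**Figure D4:**
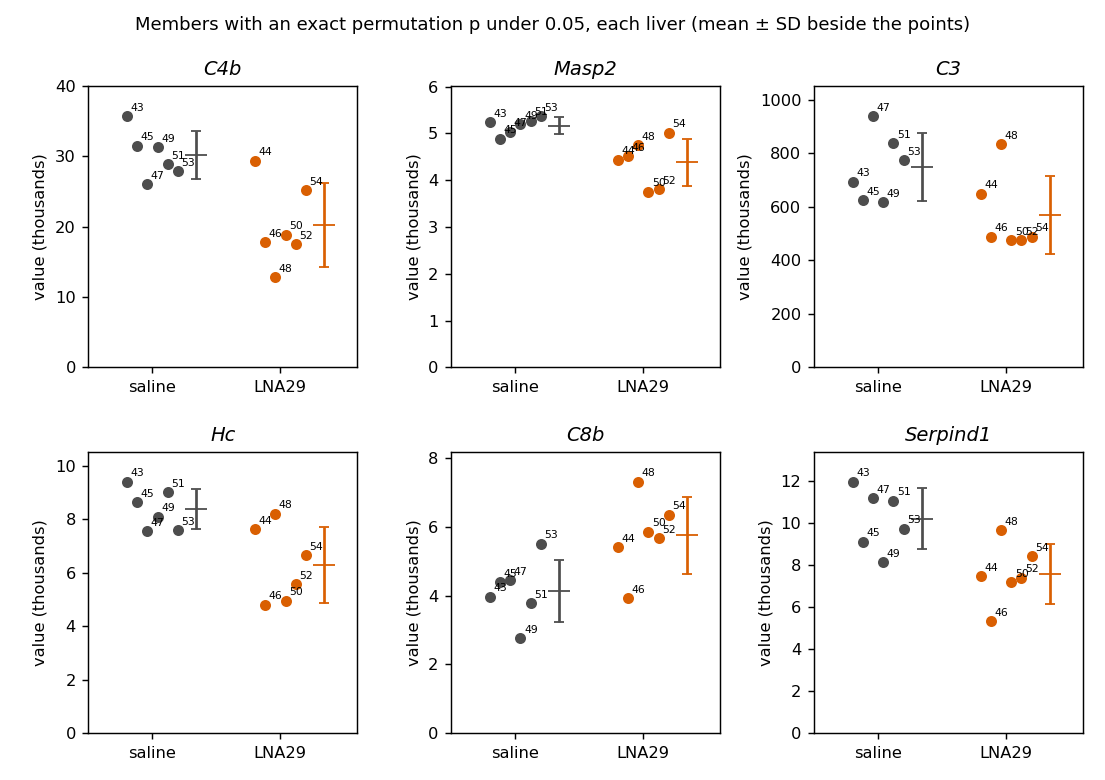
Values (in the deposited unit divided by 1000, axes from 0) of the 6 genes with an exact permutation p under 0.05 in each liver, numbered by replicate, with mean ± SD beside them. LNA29 replicates 46, 50 and 52 lie below every saline liver for C4b, Masp2, C3, Hc and Serpind1, while LNA29 replicate 48 reaches the saline range for C3, Hc and Serpind1.

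Livers differed from each other in ways that cut across the groups. Relative to each gene's mean over the 12 livers, the 39 genes without Cfd were shifted by a median of 0.29 on the log2 scale in LNA29 replicate 48 and of 0.20 in saline replicate 53. The lowest medians were -0.27 in saline replicate 49, -0.25 in LNA29 replicate 46 and -0.25 in LNA29 replicate 50. In saline replicate 49, Kng1 was lowest (-1.09) and F13b highest (0.74), and in LNA29 replicate 48 F13b was lowest (-1.01) and Mbl2 highest (1.01). Over the 39 genes, the deviation followed transcript length with a Spearman rho of 0.53 in each of saline replicates 43 and 49 and of -0.55 in LNA29 replicate 52, a description over genes that share 1 library. Adding length to the fit left the 6 log2 fold changes between -0.61 for C4b and 0.46 for C8b.

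**Figure D5:**
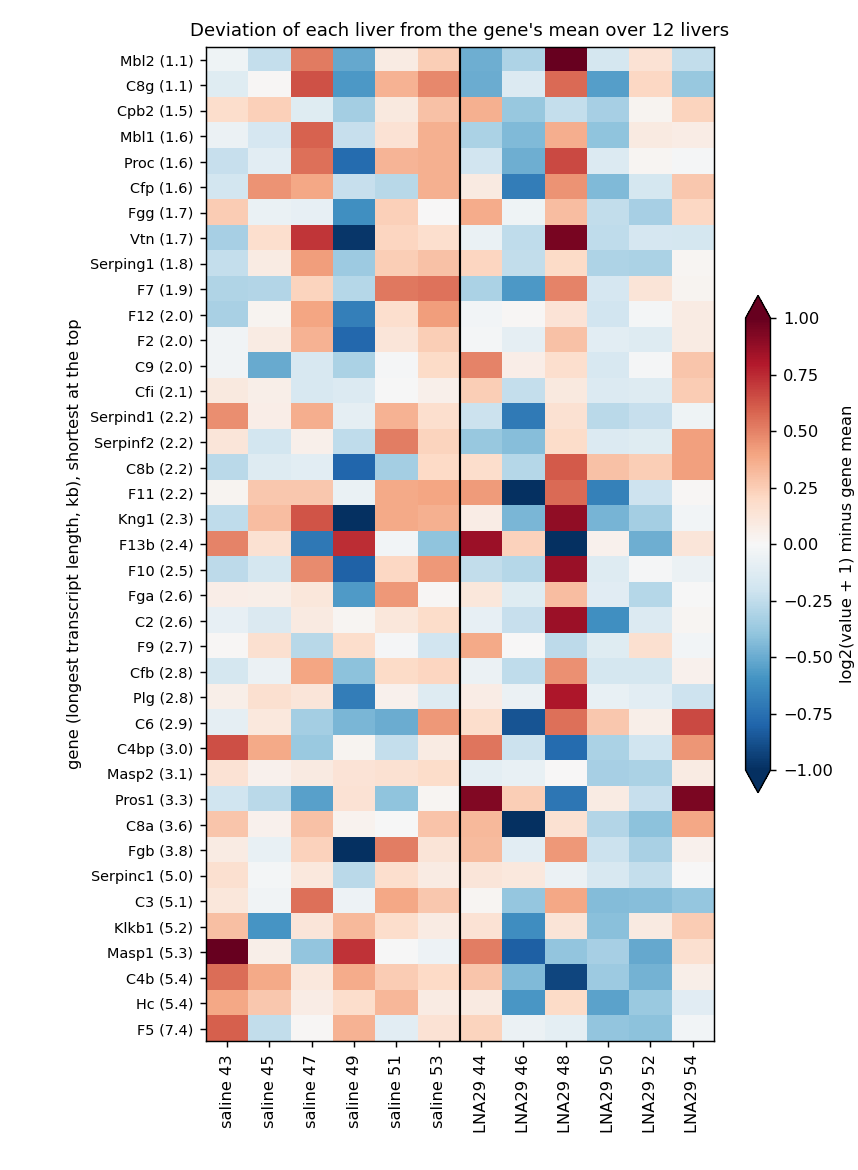
Deviation of log2(value + 1) in each liver (columns, saline left of the line) from the mean of the gene over 12 livers, for 39 genes ordered by transcript length from short (top) to long. Saline replicate 49 is low for many short transcripts and high for Masp1 and F13b, and LNA29 replicate 48 has the opposite pattern in F13b, Kng1 and Vtn.

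Compared per kilobase of the longest transcript over all livers, levels spanned a wide range. C3 was highest at 128062, followed by Vtn at 109434, Fga at 108204, Fgb at 88214 and Fgg at 87853. Shorter transcripts were not tried, so this order holds for these lengths only (for Fgb 3810 bases, with a 3′ UTR of up to 2262). At the other end were Masp1 at 189 and C6 at 145, with Cfd at 135 from its pair of livers. Between livers the SD of Vtn, Fga, Fgb and Fgg exceeded the gaps from Vtn to Fga and from Fgb to Fgg.

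A list of 58 other genes of the same pathways was examined alongside, of which 56 were in the table and 48 were tested. None had a limma adjusted p under 0.05, and 2 of the 48 had an unadjusted one, as had 988 of the 12486 genes tested. None was lower at an exact permutation p under 0.05, and 1 was higher (2.08%). This was Fcna, encoding ficolin-A, a lectin made by Kupffer cells, with 1718 ± 219 in saline and 2059 ± 291 in LNA29 livers (SD, n = 6 each), 0.26 higher on the log2 scale (p = 0.0498 by exact permutation). The median of the list was -0.09, and 33 of 48 had a lower mean of log2(value + 1) (68.8%). C1qa, C1qb and C1qc, the chains of C1q, which opens the classical route and comes from macrophages, had 0.02, -0.13 and -0.05. Ggcx, the carboxylase that vitamin K-dependent factors need, had -0.36 (p = 0.0758 by exact permutation). Other lower genes of the list had a smaller p than Ggcx without passing. Proz had -0.56 (p = 0.0563 by exact permutation) and Hgfac had -0.35 (p = 0.0563 by exact permutation). Hrg had -0.49 (p = 0.0628 by exact permutation) and Habp2 had -0.33 (p = 0.0714 by exact permutation). Proz and Hgfac were the 2 genes with an unadjusted limma p under 0.05.

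Markers of other liver cells were followed beside these genes. Of the 7 Kupffer cell markers, 1 was higher in LNA29 livers by the exact permutation test: Marco, a scavenger receptor, with a median of 429 in saline and 953 in LNA29 livers (log2 fold change 1.08, p = 0.0368). Its limma adjusted p was 0.391. Marco was 3425 in LNA29 replicate 54 and 446 to 988 in the other LNA29 livers, with saline livers at 344 to 984. The other 6, with log2 fold changes from -0.52 for Vsig4 to -0.13 for Cd5l, did not pass. The 7 markers summed to 7563 to 11020 in saline livers and to 6304 to 15123 in LNA29 livers. The 6 sinusoidal endothelial markers summed to 4404 to 5090 and to 3805 to 5000. Of the 6 stellate cell markers, Col3a1, itself a miR-29 target, was higher (1.48 on the log2 scale, p = 0.00216 by exact permutation). None of the 5 bile duct markers and neither of the blood markers in the table passed. Neutrophil genes were at or near the limit of detection, with Camp at 0 reads in every liver. The part of these cells in the values of the 40 genes was not tested.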

How the data were processed

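Per the paper's methods and the submitters' processing notes, the authors mapped single reads from 12 livers with MapSplice2 and estimated reads per gene with RSEM (build mm9, other versions and the annotation not given in the sources used here). The authors deposited these as a signal value per gene, scaled to an upper quartile of 1000, with 1 for genes without reads. Their group means, fold changes and p-values were not used, nor were 3 unnamed columns. Values were whole multiples (within 0.02) of 1 read in 92.2% to 93.9% of cases, so reads were recovered and rounded for edgeR 4.0.16 and DESeq2 1.42.0. Groups were compared on log2(value + 1) in limma 3.58.1 (R 4.3.3, trend), keeping 12486 genes whose mean reached 10, and p-values were adjusted by Benjamini-Hochberg at 0.05. Single genes were tested with two-sided exact permutation tests (Python 3.11.15, numpy 2.4.6). Each sample was taken as 1 mouse liver. Transcript lengths and 3′ UTRs came from GENCODE M21 (GRCm38). Settings tried besides were pseudocounts of 0.1 and 10, no filter or a mean of at least 100, a common median, TMM scaling, array weights, a length covariate and leaving out each liver. Sums of copies and leaving out both livers with Adipoq reads were added after the data were seen. Full values are given for genes with an adjusted or permutation p under 0.05 and the 3 highest. The genes and lists were chosen with earlier results of these data known. Scripts were tested on simulated data.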

Additional observations from a re-analysis of the deposited data

Results flagged for a closer look

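Of 80 groups of 6 livers (40 genes in both treatments), 8 held a liver far from the other 5 on the log2 scale by Dixon's ratio. For independent groups chance gives about 1 in 20, or 4, but these genes share the same 12 livers. Cfd was flagged in both treatments, with a value of 772 in saline replicate 47 and 698 in LNA29 replicate 52, the pair of livers with Adipoq reads. Most other livers held the value of 1 that stands for no reads of it. LNA29 replicate 48 was high for Vtn (347566, the others 151341 to 172575), F10 (44377, the others 20098 to 24208) and Plg (307038, the others 151616 to 183975). Saline replicate 49 was low for F2 (60290, the others 101375 to 132140) and Plg (108300, the others 160422 to 195063). Klkb1 was low in saline replicate 45 (825, the others 1314 to 1554). The length tilt over all genes had a Spearman rho of 0.496 in saline replicate 49 and -0.243 in LNA29 replicate 48. It was 0.275 in saline replicate 43 and 0.258 in LNA29 replicate 44. The part of this tilt in the flagged values was not tested.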

How the results depend on the processing

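No gene of the 40 was called by adjusted p in any alternative except C4b (1 gene) with the length covariate. The number lower by exact permutation p, 5, was 2 with a common median, and the number higher, 1, was 2 with TMM scaling and 0 without both livers with Adipoq reads. Leaving out 1 liver at a time gave 4 to 6 lower and 1 to 2 higher. The median log2 fold change of -0.09 ranged from -0.19 with array weights to -0.01 in edgeR. In the pathway list, 1 gene was lower and 0 higher with a common median, and leaving out 1 liver gave 0 to 3 lower and 0 to 1 higher. Permutation shares over all tested genes are given for the main setting only. The counts in other settings therefore have no background beside them. Of 139 repeats for the 6 genes with a permutation p under 0.05, none changed direction and 20 went past 0.05, 15 of them for C3. C9, Pros1, C2, C6, Masp1, C8g and F11 came under an unadjusted 0.05 in some repeats, with limma p-values of 0.0241 for Masp1 and 0.0261 for C8g with the length covariate and of 0.0172 for C8g and 0.0274 for F11 with array weights. C2 came under it (exact permutation p = 0.0476) without LNA29 replicate 48, and C6 (0.0411) without LNA29 replicate 46. Depth limits C6 (9 to 55 reads per liver) and F11 (13 to 111), beside Cfd. No paired analysis was possible because the 2 groups share no replicate numbers.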
